A study of Mus musculus with 16 samples.

Results

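Broad acetylated domains are long, unbroken stretches of chromatin that carry H3K27ac, the acetylation of lysine 27 of histone H3. They were taken here as every region of the deposited count table on chr1 to chr19 that was 2500 bp or longer and whose midpoint lay inside a protein-coding gene or within 50 kb of one. By that rule 1358 of the 52645 regions were broad domains, 2.58% of the table. The rule used length and position alone, but length is the extent of a called region of the mark and may depend on its level. A domain may thus have met the rule only through the group where it was high.

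The mark was mapped by ChIP-seq, the sequencing of DNA bound to immunoprecipitated chromatin, in the liver. Mice were wild-type (WT) or labelled NCoR1 knockout (KO), all on a background given as C57BL/6J. The 4 groups of 3 libraries each were WT on chow, WT on PTU/LID, KO on chow and KO on PTU/LID. PTU/LID is low-iodine food carrying 0.15% propylthiouracil, a blocker of thyroid hormone synthesis; it was fed from 6 weeks of age for 3 weeks, and every liver was taken on day 21. The sources used here do not say in which cells or at what age NCoR1 was deleted, nor whether libraries came from separate animals, and p-values then refer to the spread among these libraries alone. Ncor1 itself had 6 regions, none longer than 878 bp, and acetylation of histones there does not read out the deletion. Libraries are named here by genotype and the number in their label, as WT-106, and held between 2965505 and 7416187 counts. The mitochondrial chromosome, chrM, took from 0.717% to 17.2% of a library, most in KO-146; the 7 libraries above 2%, all 3 of KO on chow among them, are called the higher chrM set and the other 5 the lower. Nuclear regions whose counts went with chrM over the libraries at r above 0.9 are called its followers.

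H3K27ac marks active promoters and enhancers. Cells carry it in broad, dense stretches over a minority of genes, often those that define the cell type, and in liver these include genes of plasma proteins and metabolic enzymes. NCoR1 is a corepressor that brings histone deacetylase HDAC3 to nuclear receptors; those for thyroid hormone bind DNA also in its absence. A liver is a mixture of cells, and in bulk tissue fewer cells of a type and less acetylation per cell cannot be told apart.

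Promoters of 5 domains named in the comparisons are printed here to show the kinds of start sites that broad domains hold. The windows of Sult2a8, Cyp8b1 and Gask1a lie wholly inside a domain, and those of Dio1 and Arrdc3 in part. Each window runs from 250 bases before a RefSeq transcript start to 50 bases after it on GRCm38.p6, the assembly of mm10, and reads 5′ to 3′ on the gene's strand. Capitals mark CG dinucleotides and AGGTCA, the hexamer that nuclear receptors bind, on either strand. Dio1 encodes the deiodinase that makes active thyroid hormone, Sult2a8 a sulfotransferase of bile acids, Cyp8b1 the hydroxylase that sets the share of cholic acid, Gask1a a secreted kinase-like protein and Arrdc3 an arrestin-related adaptor.
Dio1, chr4:107307119-107307418, minus strand: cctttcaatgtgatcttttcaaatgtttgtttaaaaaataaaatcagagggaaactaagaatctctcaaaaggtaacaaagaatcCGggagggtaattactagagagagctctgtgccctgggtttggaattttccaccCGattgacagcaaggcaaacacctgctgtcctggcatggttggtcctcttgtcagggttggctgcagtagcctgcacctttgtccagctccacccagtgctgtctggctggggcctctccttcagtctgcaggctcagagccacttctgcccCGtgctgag
Sult2a8, chr7:14438502-14438801, minus strand: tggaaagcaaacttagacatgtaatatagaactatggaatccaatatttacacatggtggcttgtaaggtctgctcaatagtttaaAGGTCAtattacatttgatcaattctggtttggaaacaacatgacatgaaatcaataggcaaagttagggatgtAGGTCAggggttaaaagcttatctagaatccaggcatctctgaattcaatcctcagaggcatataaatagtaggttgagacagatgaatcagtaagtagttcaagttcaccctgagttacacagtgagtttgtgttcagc
Cyp8b1, chr9:121916256-121916555, minus strand: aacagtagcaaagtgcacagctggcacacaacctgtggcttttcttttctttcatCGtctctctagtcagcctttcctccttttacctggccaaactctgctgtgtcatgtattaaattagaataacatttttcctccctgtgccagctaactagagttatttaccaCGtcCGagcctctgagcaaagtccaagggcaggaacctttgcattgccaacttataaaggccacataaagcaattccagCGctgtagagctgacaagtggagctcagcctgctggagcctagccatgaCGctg
Gask1a, chr9:121950738-121951037, plus strand: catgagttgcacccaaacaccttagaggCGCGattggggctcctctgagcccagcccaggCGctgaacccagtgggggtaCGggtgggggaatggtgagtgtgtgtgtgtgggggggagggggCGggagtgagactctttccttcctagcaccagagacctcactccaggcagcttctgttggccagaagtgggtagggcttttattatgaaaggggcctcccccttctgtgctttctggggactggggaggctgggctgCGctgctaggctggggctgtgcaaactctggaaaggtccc
Arrdc3, chr13:80883134-80883433, plus strand: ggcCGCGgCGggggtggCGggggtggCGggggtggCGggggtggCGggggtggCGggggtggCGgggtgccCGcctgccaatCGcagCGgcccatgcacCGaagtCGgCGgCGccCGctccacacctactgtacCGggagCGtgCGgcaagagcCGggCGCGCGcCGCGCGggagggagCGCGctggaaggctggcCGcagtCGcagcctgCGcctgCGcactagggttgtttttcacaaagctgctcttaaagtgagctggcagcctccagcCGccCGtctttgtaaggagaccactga
The windows differ widely in CG content, with 0 CG dinucleotides in that of Sult2a8, 3 in Dio1, 5 in Cyp8b1, 6 in Gask1a and 35 in Arrdc3. The Sult2a8 window held 2 copies of the hexamer, at bases 87 and 161, and the other windows shown held none. The letters TATAAA began at base 222 of the Sult2a8 window and at base 220 of the Cyp8b1 window, where the gene starts at base 251.

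Of 20084 such promoter windows on the whole, 408 started inside a broad domain and 4133 inside a shorter region. The median was 11 CG dinucleotides for starts in broad domains, 21 for starts in shorter regions and 10 for starts in no region. Windows with 6 or fewer CG dinucleotides made up 39.0% of the starts in broad domains, 12.3% of those in shorter regions and 40.6% of those in no region. Promoters that start in broad domains were more often poor in CG than those that start in shorter regions. AGGTCA, searched on both strands, was in 22.5% of windows in broad domains, in 13.3% of those in shorter regions and in 14.7% of all windows. TATAAA was in 11.5%, 7.62% and 12.7% of the same sets. These shares describe the letters in the windows and were not tested.

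The domains had a median length of 3165 bp and reached 9857 bp, and 304 of them were 4000 bp or longer, against a median of 457 bp for the 50390 shorter regions of the same chromosomes. Together they covered 4734 kb, 13.03% of the summed length of all regions on chr1 to chr19. By position, 1020 (75.1%) had their midpoint inside a gene and 338 lay outside, 230 of these over 2.5 kb from any gene end. A listed transcript start fell in 327 of them (24.1%), against 7.06% of the shorter regions. The gene table used gives the ends of genes and not their exons, so that position within a gene is not given. Domains were also denser, with a median of 33.5 CPM (counts scaled to a common library total) per kb against 18.5 for shorter regions. The threshold on length cuts through a continuous range. The 139 domains of 2500 to 2599 bp had a median density of 32.7 CPM per kb and the 157 regions of 2400 to 2499 bp that met the rest of the rule had 32.3. Plekhg3 at 2500 bp was the shortest domain, and a region at Cd46 missed the rule at 2499 bp.

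The 1358 domains were assigned to 1016 genes, 9.06% of the 11214 genes with any region. Of these, 783 genes held 1 domain, 158 held 2 and 75 held 3 or more. Of the hepatocyte transcription factors with a region, 16 of 24 (66.7%) held a domain, among them Hnf4a, Foxa1, Cebpa, Prox1, Nr1h4 and Nr5a2. For bile acid synthesis and transport it was 15 of 24 genes, for amino acid metabolism and the urea cycle 19 of 31, for plasma carrier proteins 16 of 32 and for the apolipoproteins 6 of 13. The major urinary proteins (Mup), pheromone carriers secreted by the mouse liver, held them in 16 of 21 genes. Housekeeping genes held them in 4 of 15, and early response genes in 5 of 28. Of the NCoR1 complex, the thyroid hormone receptors and their coactivators, 2 of 17 genes did so, the receptor gene Thrb and the partner receptor gene Rxra. Genes with more regions had more chances to hold a long one. The median number of regions per gene was 15 for the hepatocyte factors, 6 for the amino acid genes, 5 for plasma carriers and 2 for housekeeping genes and for all genes alike; its part in these shares was not tested.

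**Figure D1:**
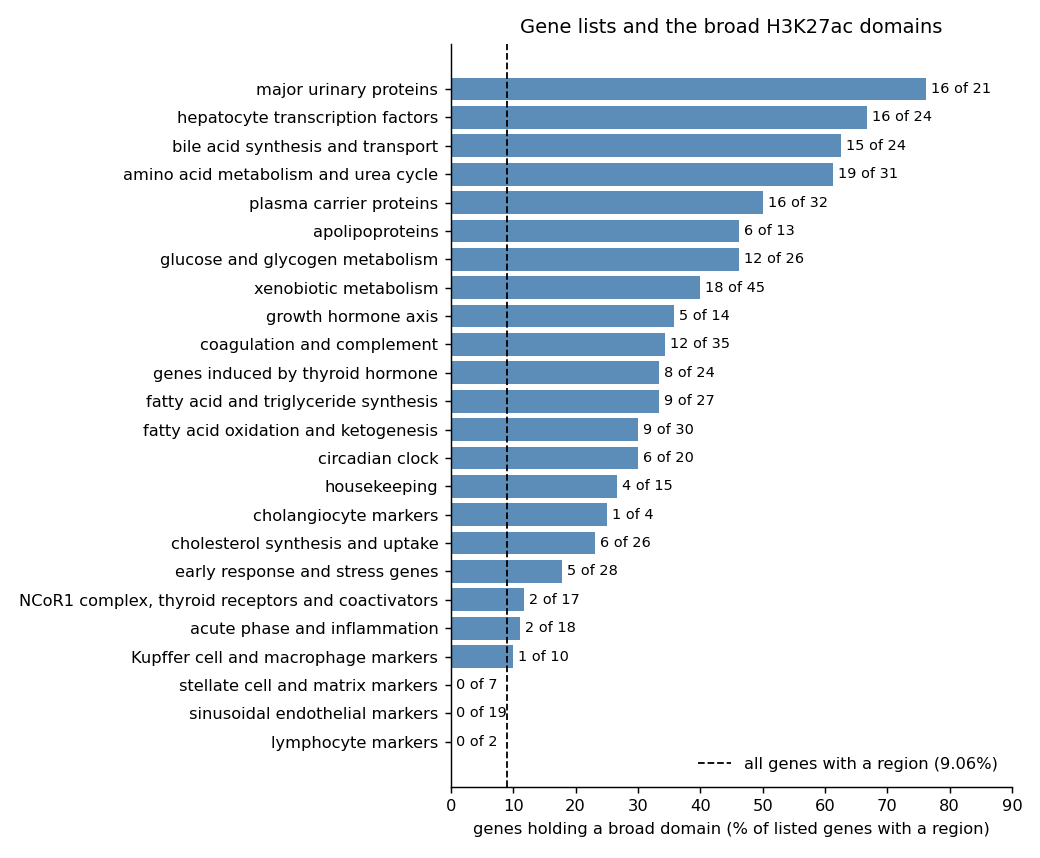
Share of the listed genes with a region that held at least 1 broad domain (x axis, %), for 24 gene lists (bars, with counts beside them). The dashed line is the share over all genes with a region, 9.06%; 21 lists lie above it, the housekeeping list among them, and the endothelial, stellate and lymphocyte lists are at 0.

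Markers of other liver cells seldom held a domain. None of 19 sinusoidal endothelial, 7 stellate and 2 lymphocyte markers with a region did so. Among the Kupffer cell and macrophage markers 1 of 10 did, Id3, an inhibitor of DNA binding that other cells express too. The macrophage genes Clec4f, Vsig4, Marco and Adgre1 had no region at all. Of 10 hepatocyte markers, 7 held a domain.

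The longest domain lay in Adh7, an alcohol dehydrogenase gene, and spanned 9857 bp at 37.4 CPM per kb. Others among the longest were at Mup17 (9641 bp), Fam169b (9635 bp), Pigr (9192 bp), Hs6st1 (8860 bp), Mat1a (8187 bp), Lmod3 (8044 bp) and Zfp36 (7898 bp). Mat1a makes the methyl donor S-adenosylmethionine. By density, the domain nearest Col19a1 stood far apart at 1890 CPM per kb. It followed the counts on chrM across libraries (r = 0.9996 over 12 libraries, as a description) and took from 0.14% to 4.78% of a library; nuclear copies of mitochondrial DNA cannot be told from mitochondrial reads there. Other dense domains were at Ugt1a1, which conjugates bilirubin, at 124 CPM per kb, Hjurp at 93.0, Cyp2d22 at 80.3 and Dcps at 75.2. Bcl6 was at 73.0, the hepatocyte receptor gene Asgr1 at 72.9, Brd2 at 72.0 and Furin at 68.0.

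Domains often came in rows. When those less than 12.5 kb apart were joined, 190 runs of 2 or more held 442 of the 1358 domains, and 46 runs held 3 or more. Mtss1, a regulator of the actin cytoskeleton, had most with 10, of which 7 formed 1 run of 42.8 kb. Zbtb16 held 6, and Adk, Irf2, Rusc2 and the glucose transporter gene Slc2a2 held 5 each. The run over Apoc2, Apoc4, Apoc1 and Apoe, apolipoprotein genes that lie side by side, held 4 domains in 27.1 kb.

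The share of a library's chr1 to chr19 counts that fell in broad domains was 17.5% ± 0.67 (SD, n = 3) on chow and 17.6% ± 0.95 on PTU/LID in WT, and 20.1% ± 1.58 on chow and 18.6% ± 1.001 on PTU/LID in KO. KO libraries were higher than WT by 1.81 percentage points (6 against 6, exact permutation test, 2-sided, p = 0.0108, adjusted over 2 tests 0.0216). Libraries on PTU/LID were lower than those on chow by less than the spread, a difference of -0.68 points (exact permutation p = 0.476). Without the domain that follows chrM the shares were 16.9% ± 1.07, 17.3% ± 1.16, 18.5% ± 0.35 and 18.4% ± 1.139 in the same order. The genotype difference was then 1.36 points (exact permutation p = 0.0303, adjusted 0.0606) and no longer passed, and the diet difference was 0.21 points (exact permutation p = 0.764).

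This share moved with the size of the library. Over the 12 libraries it correlated with the log2 of nuclear counts, chrM and its followers left out, at Pearson's r = 0.975 (permutation p = 1e-05, the smallest that 100000 resamples can give) and Spearman's rho = 0.930 (permutation p = 4e-05). Without the 2 libraries farthest from the median size r was 0.960. It was 0.946 among the 6 WT libraries (exact permutation p = 0.0417; rho = 0.771, exact permutation p = 0.103) and 0.995 among the 6 KO libraries (exact permutation p = 0.00278; rho = 0.943, exact permutation p = 0.0167). KO on chow held no library as small as libraries WT-96, WT-99 and WT-135, so that the library sizes of the genotypes overlap only in part.

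**Figure D2:**
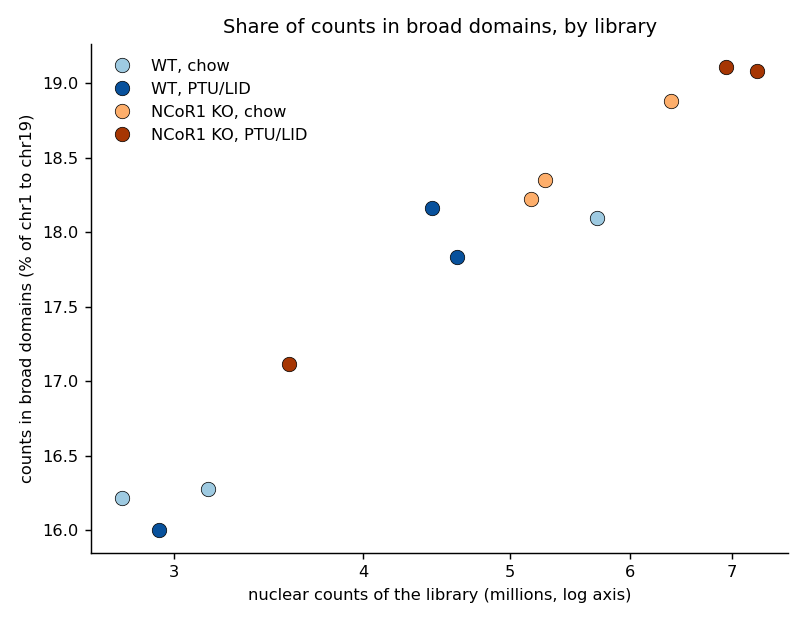
Share of chr1 to chr19 counts in broad domains, without the domain that follows chrM (y axis, %), against the nuclear counts of each of the 12 libraries (x axis, log scale), coloured by group. Shares run from 16.0% in library WT-135 to 19.1% in library KO-239 and rise with library size in both genotypes.

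Each domain was then compared between groups with edgeR's quasi-likelihood test, fitted on all 52606 regions that passed a filter on low counts, and called where its Benjamini-Hochberg adjusted p was below 0.05. All 1358 domains were kept by the filter. Levels below are CPM, scaled by the trimmed mean of M values (TMM), and differences are log2 fold changes with their standard errors. A domain carries more counts than a shorter region, and its standard error is smaller, with a median of 0.17 against 0.29 for the diet difference in WT. The shares of calls among domains and among all regions are set side by side with that difference in precision. Regions of 1000 to 2499 bp that met the rest of the rule were also called more often than all regions. Their shares were 3.72% higher and 3.73% lower by diet in WT, and 4.64% and 4.73% by diet in KO. By genotype they were 3.74% and 0.592% on chow and 7.49% and 0.756% on PTU/LID. A share above that of all regions is thus not particular to the domains.

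The question of the first comparison was how the domains of WT liver differ between PTU/LID and chow. On PTU/LID 115 of the 1358 domains differed from chow (8.47%), 47 higher and 68 lower, against 3.7% of all regions (1.81% higher, 1.9% lower). Mup domains made up 30 of the 68 that were lower. Beyond these, the deiodinase gene Dio1, both sulfotransferase genes Sult2a7 and Sult2a8, the bile acid synthesis gene Akr1d1 and the repressor gene Bcl6 fell, and domains near Khdc1a and Rassf3 rose. The median difference over all domains was 0.09, against -0.03 over all regions.

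Dio1 is a classical target of the thyroid hormone receptors. Its domain, chr4:107303100-107307183, covers the start of the gene and 65 of the 300 bases of the window printed above. It measured 90.6, 96.6 and 94.4 CPM in the WT chow libraries and 29, 21.3 and 18.3 on PTU/LID, a difference of -2.05 ± 0.19 (adjusted p = 1.97e-09). Every PTU/LID library lay below every chow library. The domain nearest Sult2a7 (26.4 kb from the gene, chr7:14517333-14521529) fell from 162, 131 and 150.1 CPM to 22.4, 24.1 and 17.5, a difference of -2.79 ± 0.18 (adjusted p = 1.37e-13). At Sult2a8, chr7:14433607-14437876 within the gene went from 192, 135.003 and 145 CPM to 29.3, 33.8 and 25 (-2.42 ± 0.19). The adjoining domain over its start, chr7:14437903-14441615, went from 125, 104 and 119.7 to 50.2, 45.4 and 41.5 CPM (-1.35 ± 0.17). The groups did not overlap at any of these domains. In every comparison between 2 groups, the highest and lowest calls named were picked from non-overlapping ones, so their lack of overlap adds no evidence. Sult2a and Mup genes have near-identical copies, so that reads may have been split or shared between them.

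The domain assigned to Akr1d1, a reductase of bile acid synthesis, lay 28.8 kb from it and went from 74.1, 59.6 and 78.4 CPM to 36.7, 31.2 and 20.9, a difference of -1.27 ± 0.20 (adjusted p = 6.22e-05). Another domain within Akr1d1 differed by 0.13 ± 0.17 (adjusted p = 0.724) and did not pass. Bcl6, a repressor under growth hormone control, held 3 domains. That at chr16:23978962-23983220 fell from 111, 128 and 119 to 56.5, 57.9 and 56.5 CPM, a difference of -1.06 ± 0.16 (adjusted p = 1.88e-05), and the other two differed by -0.20 ± 0.15 and 0.00 ± 0.16 and did not pass. In lipid synthesis, a domain of Dgat2, which makes triglyceride, went from 90.3, 98 and 117 to 51.4, 62.4 and 56.7 CPM (-0.84 ± 0.16), and a domain 6.89 kb from the cholesterol synthesis gene Sc5d from 92.5, 89.7 and 105 to 48.4, 57.3 and 59.3 CPM (-0.80 ± 0.17).

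Among the domains that rose, the one 26.2 kb from Khdc1a, chr1:21321744-21325290, went from 43.4, 49.7 and 38.4 CPM to 103, 118 and 128, by 1.42 ± 0.17 (adjusted p = 3.88e-07). The domain 12.1 kb from Rassf3, chr10:121486689-121490087, rose from 64.6, 56.9 and 71.9 to 101, 188 and 242 CPM, by 1.46 ± 0.20 (adjusted p = 2.02e-05), with library WT-135 nearest to the chow values. Tafa2 rose by 1.12 ± 0.18 (adjusted p = 0.000147) and Enpp2, which encodes the lysophospholipase D autotaxin, by 0.88 ± 0.18 (adjusted p = 0.00239). Ppp1r3c, which targets a phosphatase to glycogen, rose from 71.6, 60.2 and 76 to 123, 133 and 118 CPM, by 0.84 ± 0.17 (adjusted p = 0.0022).

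By list, genes known to be induced by thyroid hormone had 10 domains, of which 2 fell, in Dio1 and Ghr, and none rose; their median difference was -0.28. The Ghr call was lost without library WT-155 (-0.67, adjusted p = 0.0842). Of 22 domains of bile acid genes 2 fell, and of 24 domains of xenobiotic metabolism 3 fell and 2 rose. None of 13 domains of fatty acid oxidation, 7 of apolipoproteins, 13 of coagulation and complement, 4 of the receptor and corepressor list or 30 of amino acid metabolism passed. Counts by list, here and in the comparisons below, were not tested against the share called over all domains. A short list may hold no call at that share. The median difference of the hepatocyte factor domains was 0.21, and 1 of 24 passed, in Cebpa, a call lost without any 1 of libraries WT-96, WT-99, WT-106, WT-155 and WT-280. Of the calls of the other lists here, Abcb4 of the bile acid list was lost without library WT-106, and Gsta3 of the xenobiotic list without any 1 of libraries WT-96, WT-99, KO-146, WT-155 and WT-280. Marker regions of other cells moved with the diet in WT, where the Kupffer sum includes the domains near Id3. The summed level of the Kupffer list ran from 705 to 843 CPM in WT on chow and from 596 to 628 on PTU/LID, and that of the endothelial list from 1312 to 1398 and from 1066 to 1237. The stellate list ran from 103 to 123 CPM on chow and from 80.5 to 102 on PTU/LID, and the lymphocyte list from 87.7 to 93.9 and from 47.2 to 60.6. The cholangiocyte list was higher on PTU/LID, from 309 to 342 CPM against 258 to 280. Their part in the domain differences was not tested.

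The counts depended on single libraries and on the scaling. Without library WT-135, 242 domains passed (167 higher, 75 lower), without library WT-280 it was 71 (15 and 56), and without library WT-99 it was 72 (13 and 59). With a term for library size in the model 150 were higher and 109 lower, and after cyclic loess scaling with limma 55 and 132, so that which direction holds the majority moved with the scaling. The falls of Dio1, Sult2a7, Sult2a8, Bcl6, Dgat2 and Sc5d and the rises of Khdc1a, Rassf3, Tafa2, Enpp2 and Ppp1r3c passed under every setting run. Akr1d1 passed under every setting but the fit within the higher chrM set, which holds 1 WT library on PTU/LID.

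**Figure D3:**
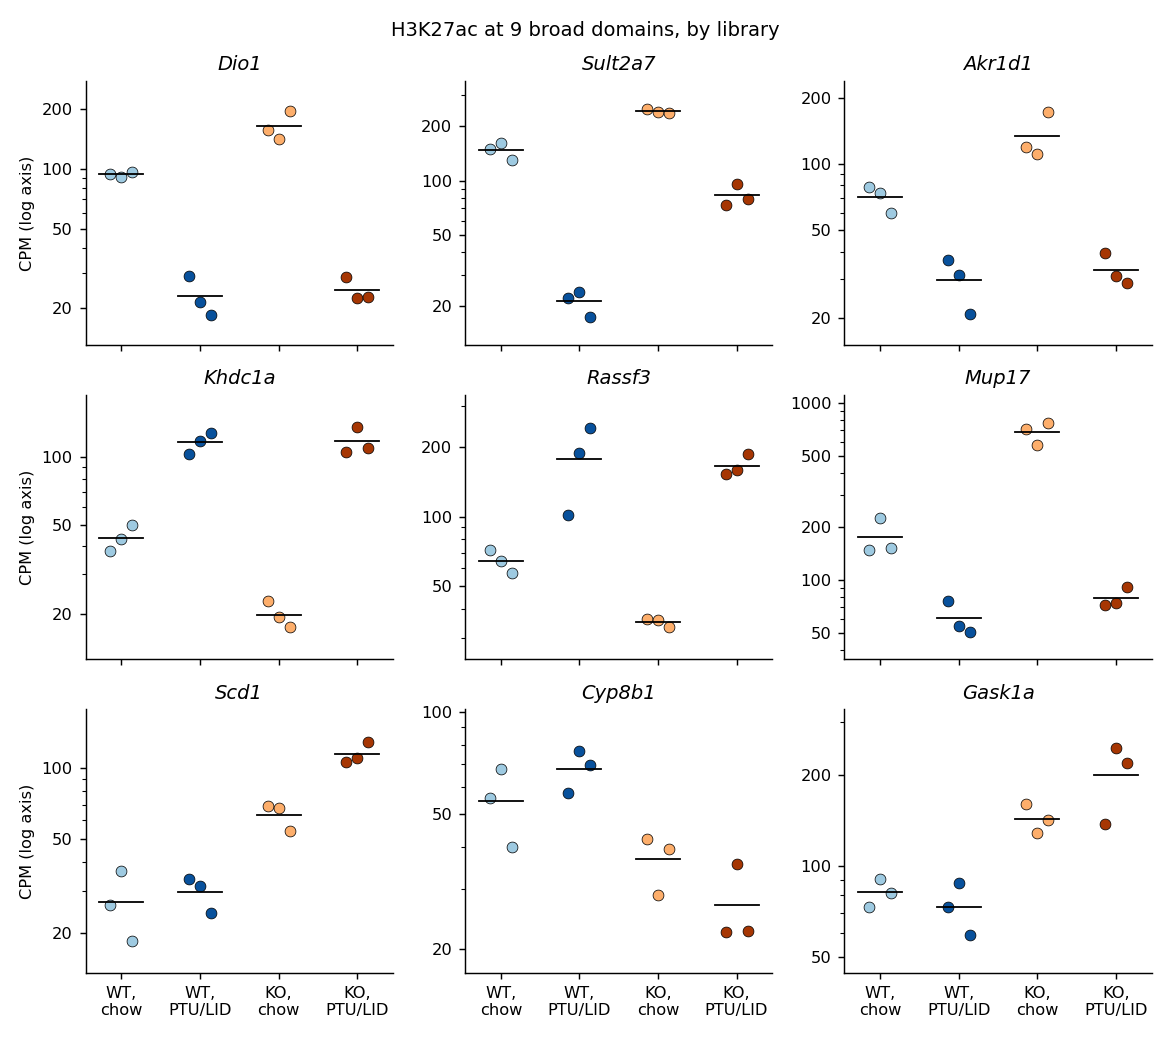
CPM (y axes, log scale) at 9 broad domains in each of the 12 libraries, by group (x axes); points are libraries and bars are group means of 3. Dio1, Sult2a7, Akr1d1 and Mup17 are lower on PTU/LID in both genotypes, and Khdc1a and Rassf3 higher. Scd1 and Gask1a lie higher in KO than in WT on both diets. Cyp8b1 lies lower in KO on PTU/LID, and its genotypes overlap on chow.

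The same diet was compared in KO livers. There 127 domains differed (9.35%), 51 higher and 76 lower, against 6.21% of all regions (3.28% higher, 2.94% lower), with 32 Mup domains among the lower ones. The median difference was 0.04 over the domains and -0.01 over all regions. Dio1, Sult2a7, Sult2a8, Akr1d1 and Bcl6 fell and the domains near Khdc1a and Rassf3 rose in KO livers too. No library is contrasted in both the WT and the KO comparison, but a single fit over all libraries gave both their scaling and estimate of spread. Of the domains called, 57 passed in both genotypes in the same direction, 49.6% of the WT list and 44.9% of the KO list, and 0 passed in opposite directions. Over all regions it was 699, or 35.9% and 21.4% of the lists, and 4 passed in opposite directions. Of these 57, 48 fell, 30 of them at Mup genes, and 9 rose. Outside the Mup genes 18 fell and 9 rose in both genotypes. The calls outside the Mup genes were 47 higher and 38 lower in WT and 50 and 44 in KO. The Mup domains, close copies in 1 cluster, thus carry much of the shares of the domain lists given above.

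Dio1 measured 156, 141 and 196 CPM in the KO chow libraries and 28.6, 22.4 and 22.6 on PTU/LID, a difference of -2.76 ± 0.18 (adjusted p = 1.07e-13). The PTU/LID values of the 2 genotypes overlapped, while all KO chow values lay above the WT ones. The Sult2a7 domain went from 250.2, 241 and 238 to 73.7, 95.2 and 79.4 CPM (-1.55 ± 0.16), and the first Sult2a8 domain from 265, 214 and 223 to 49.4, 73.3 and 58.3 CPM (-1.95 ± 0.18). The Akr1d1 domain went from 119.8, 111 and 171 to 39.4, 30.9 and 28.9 CPM, a difference of -2.03 ± 0.19 (adjusted p = 7.25e-10). The domain near Khdc1a rose from 22.9, 19.4 and 17.4 to 105.9, 136 and 110.2 CPM, by 2.57 ± 0.18 (adjusted p = 2.37e-13), and that near Rassf3 from 36.1, 35.7 and 33.5 to 152, 158 and 186 CPM, by 2.24 ± 0.21 (adjusted p = 3.35e-09).

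Other domains passed in KO livers without passing in WT. None of the 5 given here passed the interaction, the test of whether the diet response differed between genotypes. In Paics, over the start of the adjoining Ppat, both genes of purine synthesis, the domain rose from 118, 119 and 126 to 281, 277 and 348 CPM (1.32 ± 0.20 (adjusted p = 3.21e-05)); in WT it differed by 0.15 ± 0.20. A domain 28.6 kb from Aldh8a1 rose from 29.6, 32.7 and 28.3 to 60.1, 59.9 and 66.9 CPM (1.05 ± 0.17 (adjusted p = 3.68e-05)), and one in the phosphodiesterase gene Pde4d from 87.3, 127 and 90.8 to 157, 192 and 231 CPM (0.93 ± 0.17 (adjusted p = 0.000195)). The proline catabolism gene Prodh fell from 67.7, 62.9 and 96.1 to 33.5, 38.4 and 41.1 CPM (-1.001 ± 0.19 (adjusted p = 0.00048)). A domain 0.43 kb from Id3 fell from 159.7, 172 and 173 to 101, 112 and 95.8 CPM (-0.71 ± 0.15 (adjusted p = 0.00189)). Beside it, the summed Kupffer list, on which Id3 stands, ran from 715 to 803 CPM in KO on chow and from 619 to 641 on PTU/LID. This sum includes both domains near Id3 and so counts their fall again. Their means went from 119 and 168 CPM in KO on chow to 81.2 and 103 on PTU/LID. In KO the endothelial list, at 1039 to 1075 CPM on chow and 964 to 1057 on PTU/LID, overlapped between diets. So did the stellate list, at 62.5 to 81.7 and 63.2 to 76.2. The lymphocyte list was lower on PTU/LID, at 65.2 to 66.9 against 94.3 to 128. The cholangiocyte list was higher, at 335 to 369 against 287 to 322. The part of these lists was not tested.

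Of the 10 domains of thyroid-induced genes 3 fell in KO livers, in Dio1, Ghr and Klf9, and none rose. Ghr was lost without library KO-122 (-0.57, adjusted p = 0.114), and Klf9 without any 1 of libraries KO-146, KO-190, KO-211, KO-232 and KO-239 (adjusted p from 0.0535 to 0.168). None of 13 domains of fatty acid oxidation, 7 of apolipoproteins, 9 of clock genes or 4 of the receptor and corepressor list passed. The total depended on library KO-122, without which 70 domains passed (19 higher, 51 lower), and on library KO-239, without which 78 did (21 and 57). Without TMM factors 126 were higher and 54 lower, while the median of all regions moved to 0.11. With a term for library size it was 151 and 118, and with a term for the chrM sets 31 and 160. Each domain given here with CPM passed under every setting run.

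**Figure D4:**
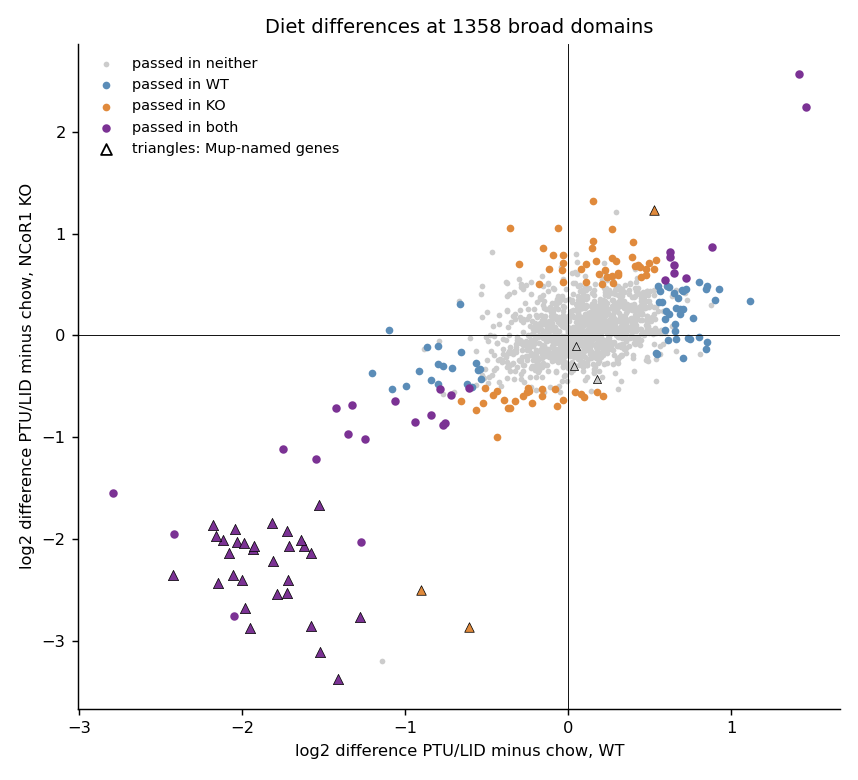
log2 difference between PTU/LID and chow in WT (x axis) and in KO livers (y axis) for the 1358 broad domains; colours show where a domain passed (blue in WT only, orange in KO only, purple in both) and triangles mark genes named Mup. The Mup cluster lies at the lower left and Khdc1a and Rassf3 at the upper right; the grey point at the lower left is the domain near Col19a1 that follows chrM.

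The Mup cluster on chr4 supplied a large part of the calls. It held 36 domains assigned to 18 genes named Mup or Mup-ps between positions 60082754 and 62152404. Their differences between diets ran from -2.43 to 0.53 in WT, with a median of -1.76, and from -3.37 to 1.23 in KO, with a median of -2.12. The domain at Mup17, chr4:61594276-61603916, the second longest of all, measured 223, 152 and 147 CPM in WT on chow and 75.9, 54.9 and 51.1 on PTU/LID. In KO livers it measured 707, 575 and 769 CPM on chow and 71.9, 74.3 and 90.8 on PTU/LID. KO chow libraries were thus well above all others, and no KO value on PTU/LID reached the lowest WT chow value. Mup21, at the far end of the cluster, went the other way. Its domain measured 53, 57.3 and 66.8 CPM in KO on chow and 120.5, 151 and 145 on PTU/LID (1.23 ± 0.18 (adjusted p = 4.78e-06)). On chow 32 of the 36 Mup domains were higher in KO than in WT, with a median of 1.09 over all 36, and on PTU/LID 17 were, with a median of 0.63; none was lower in a passing call. These genes are close copies, and single members are uncertain.

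Between genotypes on chow 86 domains differed (6.33%), 82 higher in KO and 4 lower, against 2.43% of all regions (1.61% higher, 0.823% lower). Mup domains were 32 of the 82. The lipogenic genes Scd1 and Srebf1 were among the rest of those higher, and the domains near Khdc1a and Rassf3, which rose on PTU/LID, were among the 4 lower ones. The median difference was 0.21 over the domains and -0.01 over all regions.

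Scd1 makes monounsaturated fatty acids. Of its 2 domains, that inside the gene, chr19:44404908-44407527, measured 36.4, 18.5 and 26.1 CPM in WT and 68.8, 67.5 and 54.1 in KO, a difference of 1.24 ± 0.19 (adjusted p = 0.000128). The other, 5.53 kb outside and 13.9 kb from the first, measured 68.7, 74.5 and 66.1 and 143, 140.5 and 136 CPM (1.003 ± 0.15 (adjusted p = 0.000114)). In Srebf1, the transcription factor of lipogenesis, the domain measured 70.6, 59.1 and 77.5 CPM in WT and 144, 120.2 and 139 in KO (0.96 ± 0.18 (adjusted p = 0.00168)). None of these groups overlapped, which the choice of named domains in part fixed. The domain near Khdc1a was lower in KO, with a difference of -1.136 ± 0.18 (adjusted p = 0.000149), and so was one in Ttc39c, with -1.08 ± 0.18 (adjusted p = 0.000266). That near Rassf3 differed by -0.88 ± 0.21, but its call was lost without any 1 of libraries WT-96, WT-106, KO-122, KO-146 and KO-190, with adjusted p up to 0.105.

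Of the fatty acid synthesis list 3 of 17 domains were higher on chow, 2 at Scd1 and 1 in Srebf1, with a median of 0.29 over the 17. Of fatty acid oxidation 2 of 13 were higher, in Acsl1 and Acaa1b, with a median of 0.29. Both were lost without any 1 of libraries WT-99, KO-122, KO-146 and KO-190, and Acsl1 also without WT-106 and Acaa1b without WT-96, with adjusted p up to 0.145 and 0.137; both were lost too without TMM factors, with TMM factors from the domains and after cyclic loess, and Acaa1b with a term for library size. None of the 24 hepatocyte factor domains, 22 of plasma carriers, 19 of glucose metabolism, 13 of coagulation and complement and 7 of apolipoproteins passed. Dio1 was higher in KO by 0.81 ± 0.17. Its call was lost without library KO-190 (0.66, adjusted p = 0.0788) and after cyclic loess (0.64, adjusted p = 0.0636). Akr1d1 was higher by 0.92 ± 0.19, and lost without library KO-190 (0.71, adjusted p = 0.0798) or WT-99 (0.81, adjusted p = 0.0556). The Akr1d1 call was lost too with TMM factors from the domains and after cyclic loess. The endothelial list summed to between 1039 and 1075 CPM in KO on chow, below the 1312 to 1398 of WT, and the stellate list to between 62.5 and 81.7, below 103 to 123. The cholangiocyte list was higher in KO, at 287 to 322 against 258 to 280, and so was the lymphocyte list, at 94.3 to 128 against 87.7 to 93.9. The Kupffer list, at 715 to 803, lay within the WT range of 705 to 843. Their part was not tested.

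The excess of higher calls among the domains in KO moved with library size and with the scaling. Whether some domains met the length rule only through the KO libraries was not tested. KO chow libraries held from 5161978 to 6388061 nuclear counts and WT chow libraries from 2775869 to 5706664. The median KO minus WT difference on chow grew with region length, from -0.13 for regions of 200 to 499 bp to 0.23 for those of 4000 bp or more. With a term for library size these medians were -0.04 and 0.04, and the domains called were 64 higher and 33 lower. Without TMM factors they were 45 higher and 17 lower, with the median of all regions at -0.20, after cyclic loess 49 and 19, and with TMM factors from the domains themselves 55 and 33. Among libraries of higher chrM share, with 2 WT and 3 KO chow libraries, 362 were higher and 7 lower. Leaving out library WT-99 left 36 calls, libraries KO-122 or KO-190 left 47 or 49, and without library WT-135 there were 136. Scd1, Srebf1, Khdc1a and Ttc39c passed under every setting run.

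**Figure D5:**
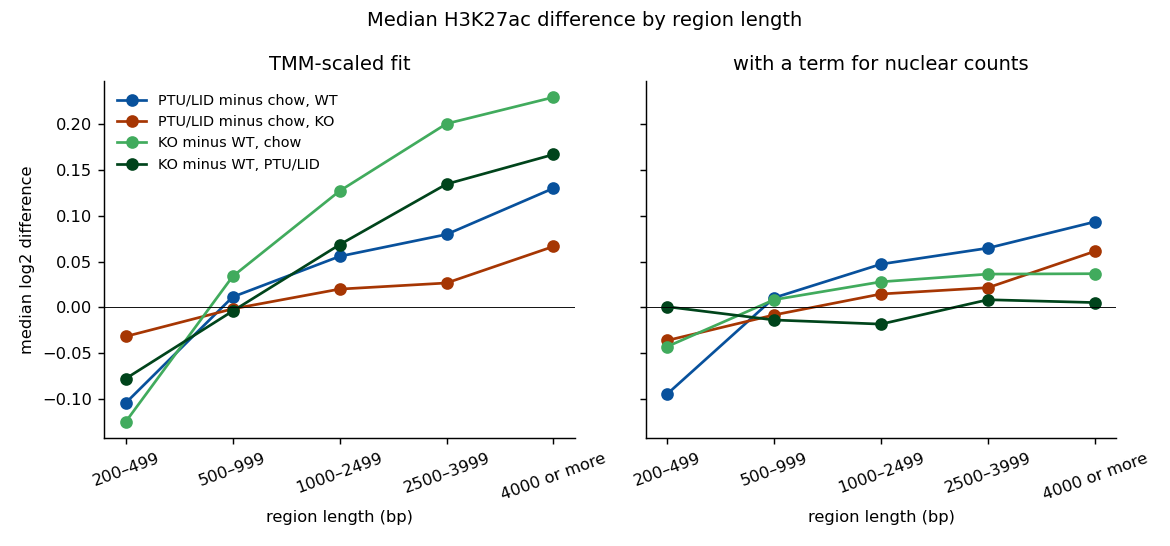
Median log2 difference (y axis) of regions on chr1 to chr19 within 50 kb of a gene, by length class (x axis, bp), for 4 comparisons (lines), in the TMM-scaled fit (left) and with a term for the log2 of nuclear counts (right). On the left the KO minus WT medians climb to 0.23 on chow and 0.17 on PTU/LID; on the right they stay at 0.04 and 0.01 in the longest class.

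On PTU/LID 138 domains differed between genotypes (10.2%), 136 higher in KO and 2 lower, against 3.86% of all regions (3.17% higher, 0.698% lower). Mup domains made up 17 of the 136. Scd1 was higher again, and so were the Sult2a domains, St3gal5, Csrp3, E2f8, Gask1a, Sc5d, Bcl6 and Nr1i2. Cyp8b1 and Tdrd7 were the 2 that were lower. The median difference was 0.14 over the domains and -0.01 over all regions.

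The Scd1 domain inside the gene measured 33.8, 31.7 and 24.2 CPM in WT on PTU/LID and 105.9, 110.1 and 129 in KO, a difference of 1.95 ± 0.19 (adjusted p = 2.48e-08). The outer one measured 70.2, 82 and 75.8 and 193, 180.3 and 206 CPM (1.34 ± 0.15 (adjusted p = 4.71e-07)). No WT library reached a KO library at either domain, which the choice of named domains in part fixed. The domain nearest Sult2a7 was at 22.4, 24.1 and 17.5 CPM in WT and 73.7, 95.2 and 79.4 in KO (1.96 ± 0.18 (adjusted p = 6.42e-09)), so that the KO level on PTU/LID stayed below every chow library of either genotype while above WT on PTU/LID. Bcl6 measured 56.5, 57.9 and 56.5 and 105.9, 116 and 128 CPM at the domain that fell with the diet (1.04 ± 0.16 (adjusted p = 4.34e-05)), and Sc5d 48.4, 57.3 and 59.3 and 102, 146.023 and 158 CPM (1.30 ± 0.17 (adjusted p = 4.5e-06)).

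Cyp8b1 and Gask1a are neighbours on chr9 with different behaviour. The domain over the Cyp8b1 promoter printed above, chr9:121914254-121916789, measured 67.8, 40.0 and 55.5 CPM on chow and 57.7, 76.4 and 69.8 on PTU/LID in WT, and 42.3, 28.8 and 39.4 on chow and 22.5, 35.5 and 22.6 on PTU/LID in KO. The KO level was the lower one on PTU/LID, with a difference of -1.33 ± 0.20 (adjusted p = 5.32e-05) and no overlap, and on chow the difference of -0.56 ± 0.20 (adjusted p = 0.12) did not pass. Gask1a starts in the domain chr9:121950474-121954597, which measured 90.6, 81.7 and 73.2 CPM on chow and 73.2, 87.9 and 59.3 on PTU/LID in WT. In KO it measured 159.9, 129 and 142 CPM on chow and 138, 245 and 219 on PTU/LID, above every WT library. It was higher in KO by 1.45 ± 0.18 (adjusted p = 3.16e-06) on PTU/LID and by 0.81 ± 0.18 (adjusted p = 0.0101) on chow, where the call was lost without library KO-122 (adjusted p = 0.0714), WT-106 (adjusted p = 0.0713) or WT-99 (adjusted p = 0.0585), with a term for library size (adjusted p = 0.0596) and after cyclic loess (adjusted p = 0.0502). Between them, 22.8 kb before the Gask1a domain, lies a 7581 bp domain assigned to Cyp8b1 that differed by 0.25 ± 0.16 (adjusted p = 0.479) on PTU/LID and did not pass.

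A domain 38.9 kb from St3gal5, which makes the ganglioside GM3, measured 32.3, 49.7 and 33.9 CPM in WT and 112, 131 and 130.5 in KO (1.69 ± 0.19 (adjusted p = 5.31e-07)). Csrp3 and E2f8 hold domains 31.1 kb apart on chr7. That over the Csrp3 start measured 40.6, 38.3 and 25.3 CPM in WT and 68.3, 143 and 115 in KO (1.66 ± 0.21 (adjusted p = 5.12e-06)), and that in E2f8 24.2, 27.6 and 17.5 and 40.4, 93.2 and 75.7 CPM (1.61 ± 0.23 (adjusted p = 6.28e-05)). In both, library KO-211 was the lowest of the KO values and still above WT. Nr1i2, the xenobiotic receptor PXR, differed by 0.93 ± 0.18 (adjusted p = 0.00156). In Rapgef4, which encodes a cAMP-activated exchange factor, all 4 domains passed, with differences from 0.62 to 0.89. Of these calls 3 were lost without library KO-232 or library WT-135 or WT-280 (adjusted p from 0.0521 to 0.277) and 2 without library KO-239, and the weakest also without any 1 of chow libraries WT-96, WT-99, KO-122, KO-146 and KO-190.

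By list, 6 of 13 domains of fatty acid oxidation were higher in KO on PTU/LID, with a median of 0.32. Of fatty acid synthesis 4 of 17 were higher, with a median of 0.41, 5 of 24 of xenobiotic metabolism and 2 of 22 of bile acid genes, where Cyp8b1 was the 1 lower. The Acsl1 domain inside the gene (0.75) was lost without library KO-232 (adjusted p = 0.0556) or WT-135 (adjusted p = 0.053), and Cyp4a10 (0.74) without KO-239 (adjusted p = 0.0953) or WT-280 (adjusted p = 0.106). Cyp4a14 (0.90) was lost without library KO-232 (adjusted p = 0.0587) or WT-280 (adjusted p = 0.0735), with a term for the chrM sets (0.0792) or for library size (0.178), with TMM factors from the domains (0.0519) and after cyclic loess (0.0684). Elovl5 of the synthesis list and Baat of the bile acid list were lost without any 1 of libraries KO-232, KO-239 and WT-280. None of 9 clock, 4 receptor and corepressor, 7 early response or 4 housekeeping domains passed. At the 10.2% called over all domains, lists this short may hold no call. In KO on PTU/LID the markers summed to between 964 and 1057 CPM for the endothelial list, below 1066 to 1237 in WT, and to between 63.2 and 76.2 for the stellate list, below 80.5 to 102. The lymphocyte list was higher in KO, at 65.2 to 66.9 against 47.2 to 60.6. The Kupffer list, at 619 to 641 against 596 to 628, and the cholangiocyte list, at 335 to 369 against 309 to 342, overlapped. Their part was not tested.

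Here too the split moved with library size. With a term for it 109 domains were higher and 57 lower and their median was 0.01, and with TMM factors from the domains alone 109 and 31. Among libraries of lower chrM share, 2 of each genotype, 316 were higher and 25 lower. Without library KO-239 there were 51 calls, without library KO-232 there were 64 and without library WT-280 there were 65. Cyp8b1, Gask1a, both Scd1 domains, the Sult2a7 domain, Bcl6, Sc5d, St3gal5 and Nr1i2 passed under every setting run. Csrp3, E2f8 and Sult2a8 passed under every setting but the fit within the higher chrM set, where 1 WT library stands against 1 KO library and the spread comes from other groups. Tdrd7 was lost without library KO-239 (-0.63, adjusted p = 0.0569).

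Whether the diet response itself differed between genotypes was tested with the interaction, the diet difference in KO minus that in WT. It passed in 9 domains (0.663%), 4 higher and 5 lower, against 0.23% of all regions (0.158% higher, 0.0722% lower), and 162 domains (11.9%) had an unadjusted p below 0.05, against 9.24% of all regions. DESeq2 called 11. The 4 Mup domains fell further in KO, where their chow level was higher. The interaction was -2.26 ± 0.28 (adjusted p = 2.04e-05) at Mup9, -1.96 ± 0.25 (adjusted p = 4.33e-05) at Mup-ps12, -1.59 ± 0.26 (adjusted p = 0.00177) at Mup17 and -1.49 ± 0.26 (adjusted p = 0.00428) at Mup2. These 4 passed with any 1 library left out. At Mup9 the CPM were 45.9, 34 and 37.2 on chow and 34.4, 23.5 and 19.7 on PTU/LID in WT, and 173, 118 and 161 on chow and 25.3, 17.7 and 19.5 on PTU/LID in KO, so that the KO chow libraries stood apart from the other 9.

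The Sult2a7 domain fell less in KO than in WT, by 1.24 ± 0.23 (adjusted p = 0.00845), and the domain near Khdc1a rose more, by 1.15 ± 0.24 (adjusted p = 0.0238). In Fh1, the fumarase gene, the domain measured 62.4, 65.4 and 87.3 CPM in WT on chow and 47.5, 51.7 and 69 on PTU/LID, and 53, 52.8 and 58.4 and 112, 81.8 and 149 in KO, an interaction of 1.42 ± 0.27 (adjusted p = 0.00829). At Adam24, 19.5 kb from the gene, it was 1.15 ± 0.26 (adjusted p = 0.0375). The Arrdc3 domain, which holds the start of the gene and the last 59 bases of the CG-rich window printed above, measured 129, 133 and 127 and 163, 195 and 207 CPM in WT and 210.0, 184 and 187 and 114, 169.6 and 140.2 in KO, an interaction of -0.99 ± 0.23 (adjusted p = 0.046). Its WT values were all higher on PTU/LID than on chow and its KO values all lower. The Fh1 call was lost without library WT-106 (adjusted p = 0.0619) or KO-239 (adjusted p = 0.0663), and the Sult2a7 call without KO-232 (adjusted p = 0.0558) or WT-280 (adjusted p = 0.0549). That near Khdc1a was lost without WT-99, KO-146, KO-190, KO-232 or KO-239 (adjusted p up to 0.117). Adam24 was lost without WT-99, WT-106, KO-122, KO-146, KO-232, KO-239 or WT-280 (up to 0.18), and Arrdc3 without any library but WT-135 and KO-232 (up to 0.178).

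Domains of the same gene seldom all passed. Among the 75 genes with 3 or more domains, 16 had at least 1 that passed by diet in WT, 15 by diet in KO, 11 by genotype on chow and 25 by genotype on PTU/LID. All domains of the gene passed one way in 4, 6, 5 and 3 of these genes, and in none did domains pass in both directions. Within such a gene the differences of its domains spanned a median of 0.38 for the diet in WT. None of the 10 domains of Mtss1 passed in any of the 5 comparisons. The shorter regions of the same gene mostly shared the sign of a domain that passed. Their median difference had that sign for 102 of 111 domains by diet in WT, 117 of 125 by diet in KO, 79 of 85 by genotype on chow and 112 of 138 by genotype on PTU/LID. Over all 1317 domains whose gene has other regions the same held for 906, 955, 855 and 883.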

How the data were processed

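For the 12 H3K27ac libraries the authors deposited raw read counts by region, whole numbers with no normalization. Tools named in the submitters' processing notes include MACS2 2.1.1, bedtools 2.26.0, Picard 2.8.1 and Bowtie2 2.2.1, with mm10 as the build. How regions were called and merged is not given in the sources used here; since long regions may be merged peaks, the calling bears on which regions are broad. The labels list 4 input libraries, not analysed here.

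Regions were assigned to the gene containing the midpoint, else to the nearest gene end, with RefSeq genes of GRCm38.p6 (21896 protein-coding genes); RefSeq promoters gave 17491 of these a start. The labels give the groups. Members and lists were chosen with earlier results of these data known. edgeR 4.0.16 (R 4.3.3, robust quasi-likelihood, TMM, filterByExpr minimum count 10) was fitted on 52606 regions over all 4 groups; calls had an adjusted p below 0.05. The fit was tested on simulated data. Replicates of a group differed beyond sampling noise (chi-square per degree of freedom from 1.98 to 7.87 over pairs). Counts, not fragments, set the precision. Domains named in the text were the 8 highest and 8 lowest non-overlapping calls per comparison, at most 2 per gene, and up to 3 per list; exceptions are Rapgef4, the central Cyp8b1 domain and other domains of genes so named. Alternatives were DESeq2 1.42.0, cyclic loess with limma 3.58.1, no TMM, no filter, no chrM regions and followers, a chrM-set term (share above or below 2%), only the groups compared, other lengths and distances, and each library left out. Added after seeing the data were a library-size term, TMM from the domains and fits within the chrM sets.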

Additional observations from a re-analysis of the deposited data

Results flagged for a closer look

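The diet response differed between genotypes at 9 domains, by the interaction (diet difference in KO minus that in WT, edgeR, adjusted p below 0.05). It was negative at Mup9 (-2.26), Mup-ps12 (-1.96), Mup17 (-1.59), Mup2 (-1.49) and Arrdc3 (-0.99), and positive at Adam24 (1.15), Khdc1a (1.15), Sult2a7 (1.24) and Fh1 (1.42). The 4 Mup domains kept the call with any 1 library left out; Mup17 lost it after cyclic loess scaling and with TMM factors from the domains alone. The other 5 lost it without at least 2 of the libraries in turn, as given with their values above.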

How the results depend on the processing

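No paired analysis was possible because the H3K27ac libraries of different groups share no number. Counts of domains called are given here as moved by more than 1.5 times from the value in the report; settings not named stayed within that. With each library left out in turn the counts ran from 71 to 242 for the diet in WT, 70 to 171 for the diet in KO, 36 to 136 for genotype on chow, 51 to 205 for genotype on PTU/LID and 6 to 12 for the interaction. A term for the chrM sets gave 195 by diet in WT, 191 by diet in KO, 480 by genotype on chow, 306 by genotype on PTU/LID and 70 for the interaction. A term for library size gave 259 and 269 by diet in WT and KO and 53 for the interaction. Within the libraries of higher chrM share there were 196 by diet in KO, 369 and 86 by genotype on chow and on PTU/LID and 56 for the interaction, and within those of lower share 222 by diet in WT and 341 by genotype on PTU/LID. The lower set holds no KO library on chow, so that the diet in KO, genotype on chow and the interaction could not be fitted within it. On PTU/LID the higher set is WT-135 against KO-211, and on chow the lower set is WT-106 alone; such fits take the spread of a single library from the remaining groups. The fits of only the groups compared gave 181 and 75 by genotype on chow and on PTU/LID. TMM factors from the domains gave 173 by diet in WT and 29 for the interaction, cyclic loess 187 and 25, and no TMM factors 17 for the interaction. The cause of these changes was not tested. With a minimum of 2000 bp the counts were 205, 227, 139, 238 and 17 of 2417 regions, in the order of the report, and with 4000 bp 32, 37, 30, 25 and 5 of 304. Domains inside a gene or within 2.5 kb of one gave 73 by diet in WT, 46 by genotype on chow and 3 for the interaction. For the share of counts in domains, the genotype difference was 0.84 points for that set (exact permutation p = 0.145), and ran from 1.30 to 2.19 with each library left out. The diet difference reversed to 0.594 for that set and to 0.211 without chrM and its followers, and ran from -1.05 to -0.0528 with each library left out. Of 133 named differences, 69 passed under every setting, 48 were lost with at least 1 library left out, and 1 reversed: Mbl1 by genotype on PTU/LID, at -0.19 (adjusted p = 0.816) in the 1 against 1 comparison of the higher chrM set. Input libraries were not used, and 3 libraries a group with unequal sizes limit small differences.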
